A study of Mus musculus with 6 samples.

Results

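Nppa, Nppb, Smpx, Csrp3, Ankrd1 and Cited1 are genes that mark the working muscle of the heart chambers without encoding sarcomere chains, and their levels were compared between 2 regions of the arterial pole of the embryonic mouse heart. The members were all probe sets whose platform annotation names only 1 of these 6 genes. They numbered 7 of 45037 probe sets, with 2 probe sets for Ankrd1 and 1 for each other gene. The study concerns regional gene expression in the outflow tract, the muscular tube between the ventricles and the aortic sac. Tissue came from unmodified embryos of the CD1 strain at embryonic day 10.5, dissected into the superior and the inferior subdomain of the tube. Each region was measured in 3 pools, numbered 1, 6 and 7 in both regions, on 1 Affymetrix mouse genome array per pool. A pool combined tissue of 6 littermate embryos per the sample labels, whereas the series text gives 7 dissected samples, so no value belongs to a single embryo. Nothing in the sources used here says which litters the pools came from, so p-values speak for these pools only.

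The early heart tube is made of slowly conducting primary muscle, from which the atria and ventricles balloon out as fast, strongly contracting chamber muscle. The outflow tract is known to keep the primary type of muscle for some time, and Nppa is a classical marker of chamber muscle that is low in this tube. The T-box factors Tbx2 and Tbx3 are known to hold chamber genes down in primary muscle, while Tbx5, Gata4 and Nkx2-5 are known to activate them.

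Values are MAS5 signals on a linear scale, each relative to the rest of its array. Log2 differences are superior minus inferior on log2(signal + 3.2), which understates the change of dim genes, and compare the regions within each pool number with limma. Its standard errors, intervals and p-values rest partly on variance shared across probe sets. Member probe sets had 7.17 to 8.53 degrees of freedom in this way, against 2 from the pools alone. A probe set was tested when its mean log2 value lay above the median of all probe sets, and a call needed an adjusted p (Benjamini-Hochberg over 22518 tested probe sets) under 0.05. All 7 member probe sets were tested, and all lay above the background signal of 8.0, the highest signal of 27 Bacillus control probe sets, on every array. Arrays of pool 1 stood apart in RNA controls. Their ratio of Gapdh 5′ to 3′ signal was 0.769 in superior and 0.452 in inferior tissue, against 1.11 to 1.20 on the other arrays, and their mean 18S signals were 77.6 and 67.8, against 438.7 to 690.3 elsewhere. The superior array of pool 6 had hybridisation controls at 1.64 times the median array. The tissue carried the 8 listed markers of heart muscle at signals of 860.8 or more on every array.

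The 5 genes Nppa, Cited1, Csrp3, Nppb and Smpx had higher signals in superior than in inferior tissue in each of the 3 pools, with log2 differences between 0.46 and 2.24, and Ankrd1 showed no such difference. None of the 7 member probe sets passed the adjusted threshold in limma's paired fit, although 5 of 7 had an unadjusted p under 0.05. The adjusted p-values of those 5 lay between 0.0622 and 0.132. Over all tested probe sets, 0.16% were called in this fit (0.0933% higher and 0.0666% lower in superior tissue, or 21 and 15 probe sets), 11% had an unadjusted p under 0.05 and 4.98% had one and were higher in superior tissue. Superior values lay above inferior values in all 3 pools for 6 of 7 member probe sets, against 15% of all those tested, and 0 of 7 were lower in all 3 pools, against 19%. The 6 include the brighter Ankrd1 probe set, whose log2 differences were only 0.02, 0.06 and 0.02 in pools 1, 6 and 7. After scaling on the 75th percentile, 26 of 38 calls were higher in superior tissue, and 0 were of members. The median log2 difference over the 6 genes, taking the brighter Ankrd1 probe set, was 0.56, with 0.51, 0.60 and 0.62 in pools 1, 6 and 7, and the median over all tested probe sets was -0.02.

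**Figure D1:**
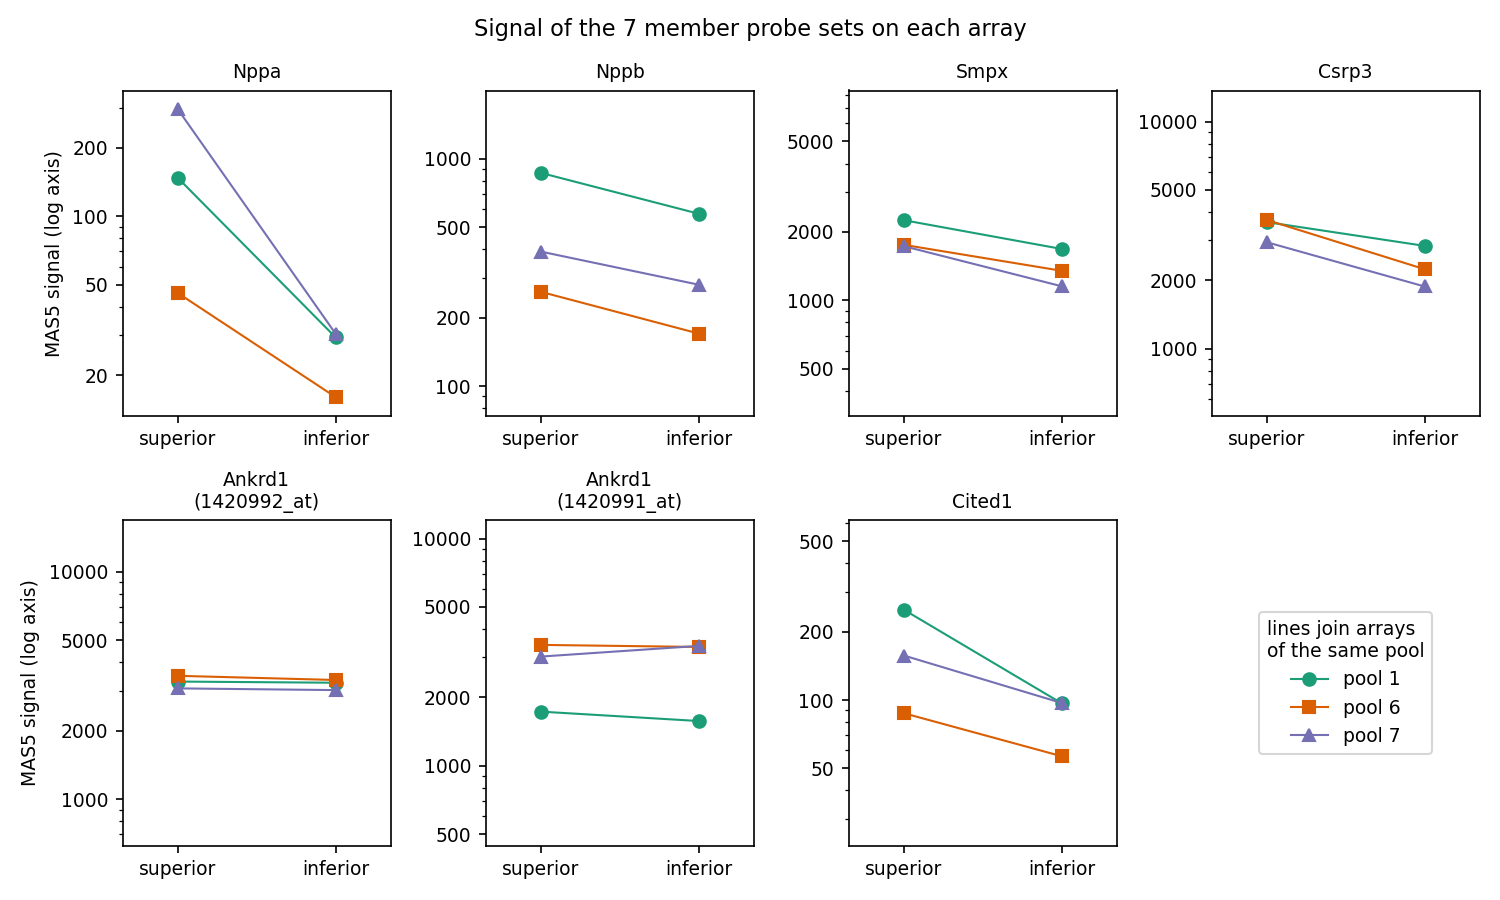
MAS5 signal (log axis, the same span of ratios in every panel) of the 7 member probe sets in superior tissue (left) and inferior tissue (right), with 1 point per array and lines joining the arrays of a pool. Lines slope down towards inferior tissue in all 3 pools for Nppa, Nppb, Smpx, Csrp3 and Cited1, while both Ankrd1 panels are nearly flat and pool 1 lies apart for probe set 1420991_at.

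Natriuretic peptides are hormones that heart muscle releases when stretched; they act through receptors that make cyclic GMP and promote the loss of salt and water. Nppa encodes the precursor of atrial natriuretic peptide, and its probe set was 1456062_at. Its signal was 147.4, 45.9 and 295.4 in the superior arrays of pools 1, 6 and 7, against 29.3, 16.0 and 30.4 in the inferior arrays. The lowest superior value lay above the highest inferior value. The means were 163 ± 125 in superior and 25.2 ± 8.02 in inferior tissue (SD, n = 3 each), and the superior signal was 5.03, 2.87 and 9.72 times the inferior one in pools 1, 6 and 7. The spread was thus carried by the superior arrays, with pool 7 highest and pool 6 lowest among them. The log2 difference was 2.24 ± 0.30 (SE), with a 95% interval of 1.53 to 2.95 and a limma adjusted p of 0.0622. The 3 pool differences had an SD of 0.90, so this interval is narrower than these pools alone would give. By size the log2 difference ranked 2 among the 22518 tested probe sets, behind Aldh1a1 alone.

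Nppb encodes the precursor of brain natriuretic peptide, a second hormone of heart muscle, and its probe set was 1450791_at. Its signal was 866.7, 259.7 and 390.4 in superior arrays of pools 1, 6 and 7, against 573.1, 170.2 and 279.2 in inferior arrays. The regions overlapped, because pool 1 was high and pool 6 low in both of them. Within a pool, the superior signal was 1.51, 1.53 and 1.40 times the inferior one. The means were 506 ± 319 and 341 ± 208 (SD, n = 3 each), and the log2 difference was 0.56 ± 0.09 (SE; 95% interval 0.35 to 0.76), with a limma adjusted p of 0.0785. The difference of Nppb hardly varied between pools, with an SD of 0.07 over the 3 log2 differences, whereas that of Nppa was larger in every pool and had an SD of 0.90.

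Nppa and Nppb lie next to each other on chromosome 4 in the RefSeq annotation, with 0 listed genes between them. The 250 bases before the transcript starts of the RefSeq table are shown because these neighbours had regional differences of unlike size, and the window of Ankrd1, the gene with the smallest regional difference, is shown for comparison. Sequences are RefSeq's for build GRCm38.p6, 5′ to 3′ on the strand of the gene, and all 6 genes matched. Capitals mark matches, on either strand, to 4 short motifs of cardiac transcription factors: the T-box core TCACACC, the NK2 element TNAAGTG, the GATA element GATAA and the M-CAT element GGAATG of TEAD factors. No 2 matches overlapped in these windows.
Nppa, chr4:148000472-148000721, plus strand: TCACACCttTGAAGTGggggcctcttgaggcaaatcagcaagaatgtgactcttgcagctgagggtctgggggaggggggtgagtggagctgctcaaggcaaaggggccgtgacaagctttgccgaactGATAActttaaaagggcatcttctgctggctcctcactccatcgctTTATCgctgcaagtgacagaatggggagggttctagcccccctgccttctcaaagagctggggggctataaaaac
Nppb, chr4:147985650-147985899, plus strand: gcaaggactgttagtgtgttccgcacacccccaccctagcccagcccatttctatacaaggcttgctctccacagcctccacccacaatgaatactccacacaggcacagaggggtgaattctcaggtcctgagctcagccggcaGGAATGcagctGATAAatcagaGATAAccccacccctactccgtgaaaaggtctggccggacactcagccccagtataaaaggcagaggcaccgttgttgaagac
Ankrd1, chr19:36119845-36120094, minus strand: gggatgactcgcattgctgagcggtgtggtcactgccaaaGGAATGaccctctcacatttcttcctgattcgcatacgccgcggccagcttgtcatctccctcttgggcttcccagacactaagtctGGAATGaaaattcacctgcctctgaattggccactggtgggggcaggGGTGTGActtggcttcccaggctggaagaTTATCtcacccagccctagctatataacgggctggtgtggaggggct
The Nppa window opened with a T-box core 250 to 244 bases before the start and an NK2 element 241 to 235 bases before it, and held 2 GATA elements. The Nppb window held 1 M-CAT element and 2 GATA elements close together, from 105 to 79 bases before the start. The Ankrd1 window held 2 M-CAT elements, 1 T-box core and 1 GATA element, so the T-box core was found in the windows of both Nppa and Ankrd1. Of 32851 RefSeq windows of the same length, 3.33% held the T-box core, 10.1% the NK2 element, 22.6% the GATA element and 12.6% the M-CAT element. Among the other members, Smpx had 2 GATA elements, 1 of 2 Csrp3 windows had an NK2 element and 1 of 3 Cited1 windows a GATA element. These matches describe letters in a window and are not measured binding sites.

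Smpx and Csrp3 belong to the structural side of chamber muscle. Smpx encodes a small muscle protein of the cytoskeleton and is an early marker of the forming chambers. Its signal (probe set 1418095_at) was 2252.4, 1754.4 and 1730.8 in superior arrays of pools 1, 6 and 7, against 1682.9, 1349.0 and 1153.4 in inferior arrays. All superior values lay above all inferior values, although the lowest superior and the highest inferior value were close. The means were 1913 ± 295 and 1395 ± 268 (SD, n = 3 each), and the log2 difference was 0.46 ± 0.09 (SE; limma adjusted p = 0.132). Csrp3 encodes muscle LIM protein, which sits at the Z-disc and takes part in sensing stretch. Its signal (1460318_at) was 3610.6, 3690.7 and 2944.7 in superior arrays, against 2838.2, 2240.9 and 1880.6 in inferior arrays. The regions did not overlap here either, and the superior signal was 1.27, 1.65 and 1.57 times the inferior one in pools 1, 6 and 7. The log2 difference of Csrp3 was 0.57 ± 0.10 (SE; limma adjusted p = 0.106). With Nppa, this made 3 of 7 member probe sets whose superior values all lay above all inferior values, against 4.65% of all tested probe sets.

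Ankrd1 encodes cardiac ankyrin repeat protein, which binds titin in the sarcomere and also enters the nucleus as a transcriptional cofactor. It stood out from the other 5 genes in showing almost equal signals in both regions. The brighter probe set, 1420992_at, had signals of 3291.6, 3488.9 and 3071.8 in superior arrays of pools 1, 6 and 7, against 3252.9, 3344.6 and 3019.0 in inferior arrays. The highest of these 6 values was 1.16 times the lowest. The log2 difference was 0.03 ± 0.09 (SE; limma adjusted p = 0.921), and its 95% interval of -0.16 to 0.23 lay below the differences measured for the other 5 genes. The other probe set, 1420991_at, gave a log2 difference of 0.00 ± 0.09 (limma adjusted p = 0.993), with opposite signs in pools 6 and 7 (0.03 and -0.16). On that probe set, pool 1 lay apart with 1731.9 in superior and 1574.9 in inferior tissue, against 3025.7 to 3405.4 on the other 4 arrays. The same 2 arrays had the low Gapdh 5′ to 3′ ratios, whose part in this was not tested. The sign of both Ankrd1 probe sets turned under quantile normalization and cyclic loess, so no direction is given for this gene.

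Cited1 encodes a coactivator that binds no DNA itself and works with the acetyltransferases CBP and p300; in the mouse embryo it is known as a marker of early chamber muscle. Its signal (1449031_at) was 249.7, 87.5 and 157.0 in superior arrays of pools 1, 6 and 7, against 96.8, 56.6 and 97.1 in inferior arrays. The regions overlapped only through the superior array of pool 6, which lay below 2 of the inferior arrays but above its own partner. The superior signal was 2.58, 1.55 and 1.62 times the inferior one in pools 1, 6 and 7, and the means were 165 ± 81.4 and 83.5 ± 23.3 (SD, n = 3 each). The log2 difference of 0.87 ± 0.16 (SE, limma adjusted p = 0.111) ranked 40 of 22518 by size. Without pool 1, whose arrays stood apart in RNA controls, it was 0.64 (limma adjusted p = 0.796). The part of RNA quality in this was not tested. Nppa, Nppb and Cited1 were all lowest in pool 6 in both regions.

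**Figure D2:**
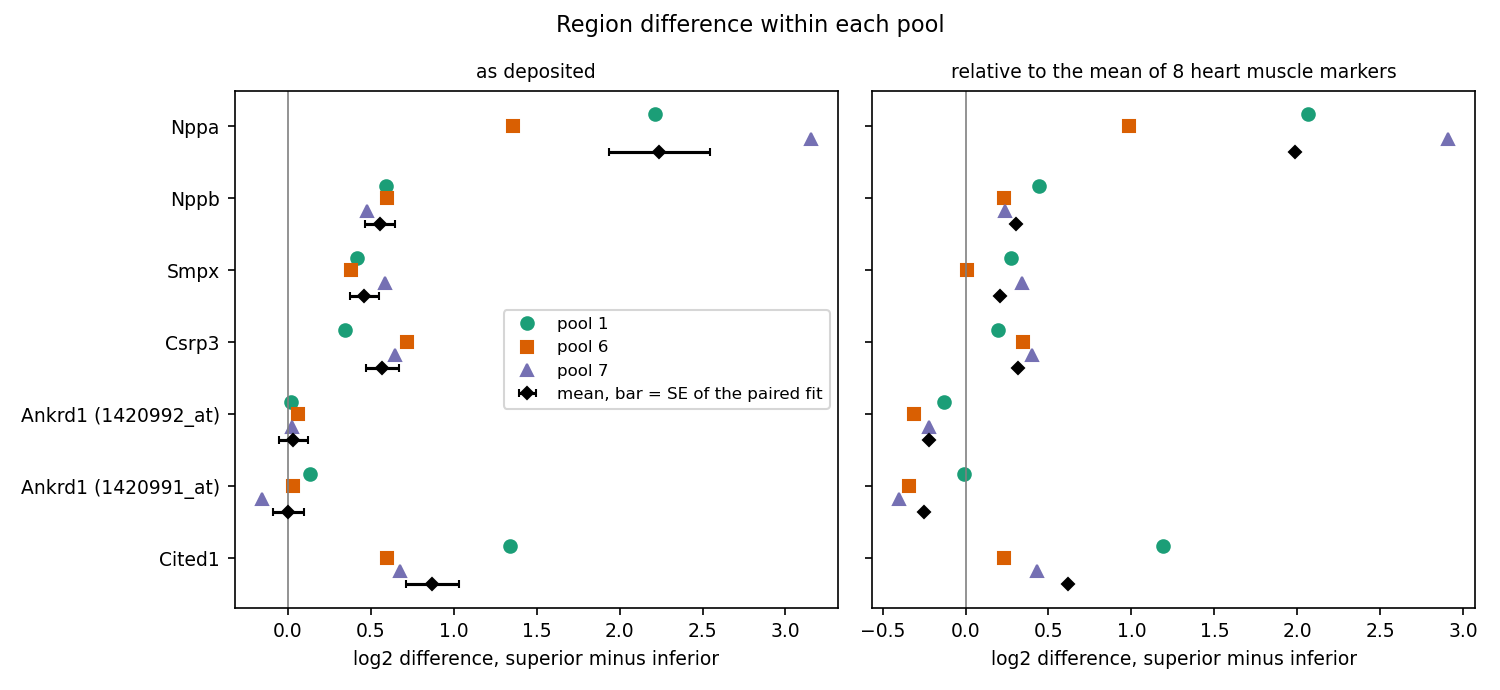
Log2 difference, superior minus inferior, of each member probe set in pools 1, 6 and 7 (coloured points), with the mean as a black diamond and, on the left, the SE of the paired fit. The right panel shows the same after taking off each array's mean log2 value of 8 heart muscle markers, where Nppa keeps a mean of 1.99 and both Ankrd1 probe sets lie below 0.

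Which pools entered the fit decided whether members were called. Without pool 6, limma called 5 of 7 member probe sets (1.03% of all tested), Nppa with an adjusted p of 0.00130. Without pool 7 it called Nppa, Nppb and Cited1 (0.515% of all tested), and without pool 1 it called 0 of 7 (0.04% of all tested), Nppa then having an adjusted p of 0.877 at a log2 difference of 2.25. These fits have 1 residual degree of freedom for each probe set, so their p-values rest on variance shared across probe sets. When the pairing was ignored, 0% of tested probe sets passed in limma, with 0.755 as the lowest adjusted p of any of them, and each member had an adjusted p of 1.00. In that fit 3 of 7 member probe sets, those of Nppa, Csrp3 and Smpx, had an unadjusted p under 0.05, against 3.52% of all tested in either direction and 1.78% higher in superior tissue. The standard error of Nppb was then 0.55 in place of 0.09, since its level varied more between pools than between regions.

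**Figure D3:**
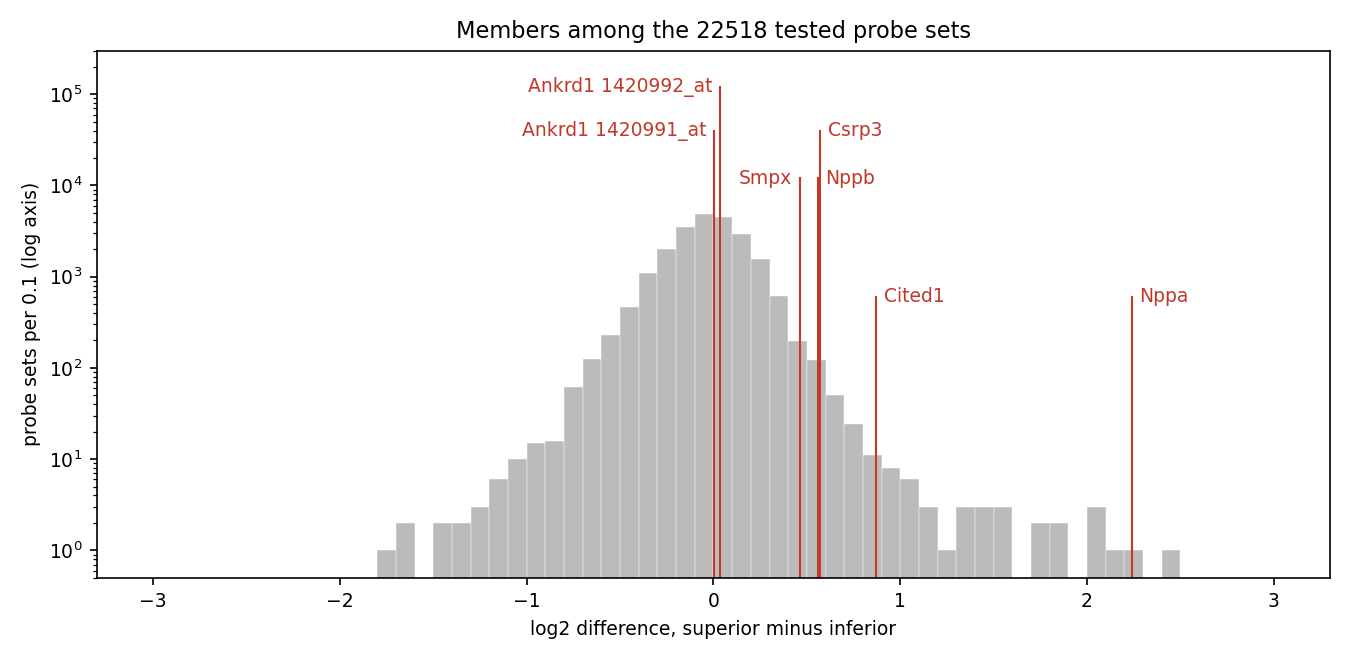
Number of tested probe sets (log axis) by log2 difference, superior minus inferior, in steps of 0.1, with red lines at the 7 member probe sets. Nppa lies near the right end at 2.24, Cited1 at 0.87, and Csrp3, Nppb and Smpx between 0.46 and 0.57, while both Ankrd1 probe sets lie at the centre.

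The genes whose products process, bind or break down natriuretic peptides, or act downstream of them, did not pass the test in either direction. Of 12 listed genes 10 were tested and 0 were called in either direction, and their median log2 difference was -0.04. That median ranged from -0.29 to 0.06 over 18 alternatives and turned sign in 4 of them, among them without pool 1 (0.06) and without pool 6 (0.010), so it has no settled direction. Mme, which encodes neprilysin, an enzyme that breaks the peptides down, had signals of 142.8, 110.5 and 146.8 in superior arrays, against 180.9, 129.6 and 310.2 in inferior arrays (log2 -0.54 ± 0.16, limma adjusted p = 0.336). Npr2, the receptor for C-type natriuretic peptide, had a log2 difference of -0.28 ± 0.13. The highest differences were those of the cyclic GMP dependent kinase Prkg2 (0.29 ± 0.18) and of the cyclic GMP phosphodiesterase Pde5a (0.28 ± 0.14). Corin, the protease that cuts the Nppa precursor, had signals of 440.4 to 485.1 in superior and 369.1 to 557.2 in inferior arrays, so that the superior range lay inside the inferior one. Nppc, the gene of C-type natriuretic peptide, was below background on all arrays, and Npr1, the receptor for both atrial and brain natriuretic peptide, was above it on 4 of 6 and was not tested.

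None of the 16 listed regulators of chamber genes was called, and their median log2 difference was -0.06 (0.018 without the superior array of pool 6, unpaired). The lowest were the repressors Tbx3 and Tbx2. Tbx3 had signals of 24.3, 35.3 and 49.7 in superior arrays of pools 1, 6 and 7, against 41.1, 49.5 and 82.1 in inferior arrays (log2 -0.61 ± 0.15, limma adjusted p = 0.243). Tbx2 had signals of 75.1, 58.4 and 94.7 in superior arrays, against 91.4, 69.0 and 140.8 in inferior arrays (log2 -0.35 ± 0.13, adjusted p = 0.401). Both were lower in superior tissue in each pool, although neither passed the test and the regions overlapped. The activator Nkx2-5 had signals of 420.2, 328.9 and 475.0 in superior arrays, against 547.9, 421.6 and 547.1 in inferior arrays, and was thus also lower in superior tissue in each pool (log2 -0.31 ± 0.09, limma adjusted p = 0.313). Myocd, a coactivator of muscle genes, was likewise lower in each pool (-0.27 ± 0.09, limma adjusted p = 0.386), while Gata4 had a difference of 0.00 ± 0.08. That of Tbx5, -0.05 ± 0.28, averaged unlike pools, with 0.42, 0.35 and -0.92 in pools 1, 6 and 7. Tbx5 was dim, above background on 5 of 6 arrays, so its values do not show equal levels. The highest were Hand1 (0.12 ± 0.12) and Mef2a (0.08 ± 0.09), transcription factors of heart muscle, each higher in 2 of 3 pools.

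Among partners and paralogs of Csrp3, Ankrd1 and Smpx, 14 of 18 listed genes were tested, 0 were called, and the median log2 difference was 0.01, with a range of -0.24 to 0.12 and the opposite sign in 7 of 18 alternatives, without pool 7 among them (-0.030). Myoz2, a Z-disc protein that binds calcineurin, was highest, with signals of 136.4, 137.0 and 80.0 in superior arrays, against 90.4, 92.4 and 43.8 in inferior arrays (log2 0.65 ± 0.12, limma adjusted p = 0.127). The LIM protein gene Fhl2 followed at 0.35 ± 0.13. The lowest were Xirp1, an actin-binding repeat protein (-0.28 ± 0.11), and Actn2, the alpha-actinin of the Z-disc (-0.09 ± 0.10). The Csrp3 paralogs Csrp1 and Csrp2 had differences of -0.05 and 0.02, against 0.57 for Csrp3. Of the Cited family and its partners, 5 of 7 listed genes were tested and 0 were called, with a median of -0.10. One array moved this median widely, to 0.025 without the inferior array of pool 1 and to -0.26 without that of pool 6, both unpaired. Cited4, a paralog of Cited1, was highest at 0.50 ± 0.16 and Cited2, another paralog that is much more widely used in the embryo, had -0.09 ± 0.09. The lowest were Tfap2a (-0.34 ± 0.17), a transcription factor that CITED proteins bind, and Ep300 (-0.27 ± 0.13), the gene of p300.

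Of 22 other chamber genes 18 were tested and 1 was called. This was Irx4, a homeobox factor of ventricular muscle, with signals of 89.6, 33.8 and 58.7 in superior arrays of pools 1, 6 and 7, against 11.2, 10.4 and 11.0 in inferior arrays (log2 2.09 ± 0.24, limma adjusted p = 0.0294). It shared with Nppa a large difference in every pool and its smallest one in pool 6. The median of the 18 genes was 0.17, below the differences of 5 of the 6 members, with 14 of 18 above 0. It was 0.089 without pool 7, with 11 of 18 above 0, and unpaired it was 0.27 without the inferior array of pool 1 and 0.11 without that of pool 7. Relative to heart muscle markers it was -0.084. Sln, the calcium pump inhibitor of atrial muscle, had a log2 difference of 0.72 ± 0.13 (adjusted p = 0.122). The lowest were Casq2, which stores calcium in the sarcoplasmic reticulum (-0.41 ± 0.10, adjusted p = 0.234), and Pam, a peptide-processing enzyme abundant in atrial granules (-0.11 ± 0.10). Gja5, a connexin of fast-conducting chamber muscle, was below background on all arrays and Bmp10, a growth factor of trabecular muscle, was above it on 1 of 6, so neither was tested.

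**Figure D4:**
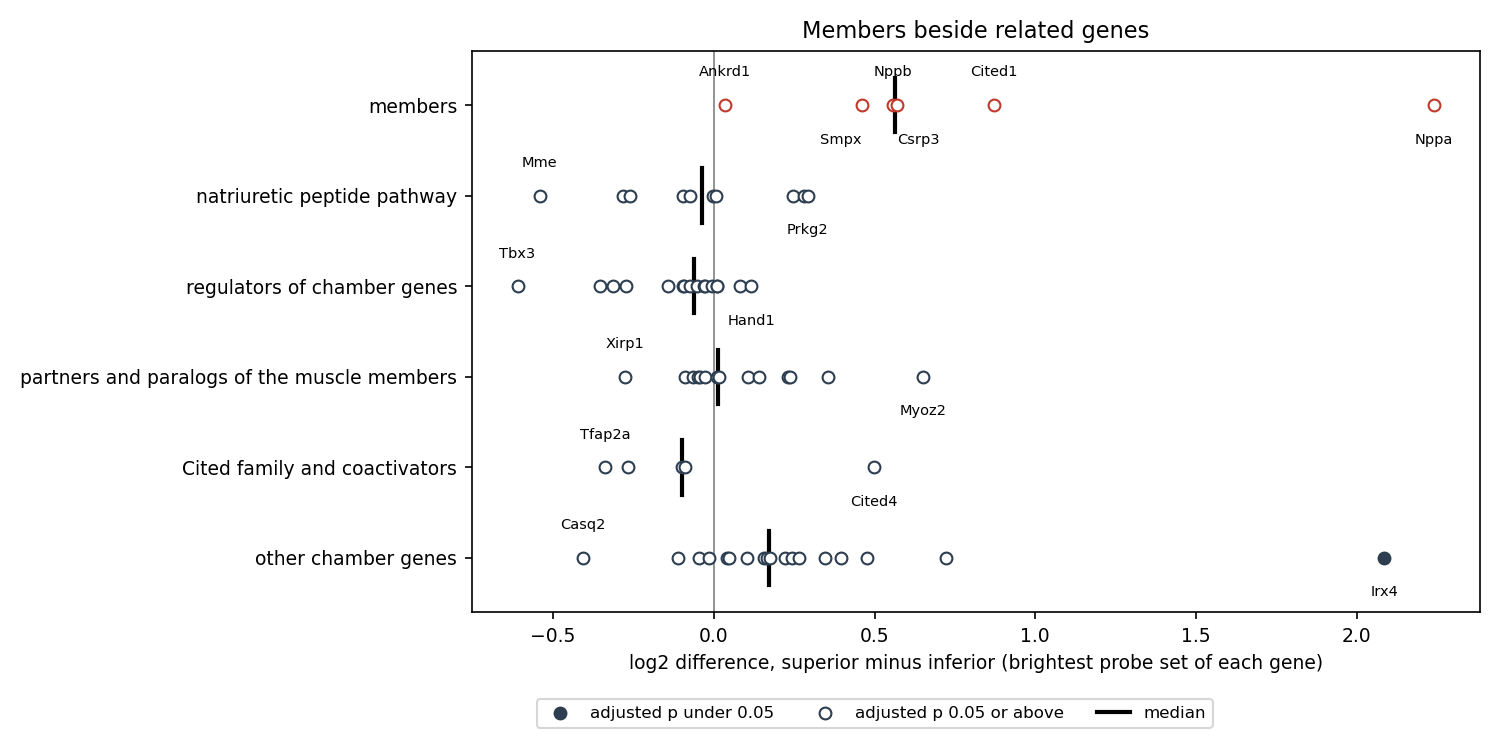
Log2 difference, superior minus inferior, of the members (red outlines) and of the tested genes of 5 related lists, with 1 point per gene, a black bar at each median and filled points for adjusted p under 0.05. The member median of 0.56 lies right of the list medians of -0.04, -0.06, 0.01, -0.10 and 0.17, and Irx4 is the only filled point.

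Markers of the tissues that the dissected pieces could hold also differed between the regions, and in bulk tissue fewer cells of a type and less RNA per cell cannot be told apart. All 8 heart muscle markers had higher mean log2 values in superior tissue, 0 were called, and their summed signal was 35615 to 44427 in superior and 32373 to 32779 in inferior arrays. Their median log2 difference was 0.27, and it was 0.14, 0.45 and 0.17 in pools 1, 6 and 7. It was 0.05 under quantile normalization, 0.13 under cyclic loess and 0.16 without pool 6. Of the ventricle markers 6 of 6 were higher and 1, Irx4, was called, with summed signals of 10877 to 13525 in superior and 9126 to 9930 in inferior arrays. Myl2, a myosin light chain of ventricular muscle, showed a log2 difference of 0.48 ± 0.11 (limma adjusted p = 0.234). Of the atrium markers 4 of 6 were higher and 0 were called, with summed signals of 5590 to 6695 in superior and 4919.8 to 5240.2 in inferior arrays. Most of that sum was Myl4, at 4823.1 to 5884.8 in superior and 4195.7 to 4367.0 in inferior arrays. Myl4 is also 1 of the 8 heart muscle markers, so the sum is not separate from that list. Hey1 and Nr2f1 had mean log2 differences below 0. Myl2 and Myl3 likewise made most of the ventricle sum. The atrium median of 0.18 was 0.074 without pool 6, with 3 of 6 higher, and 0.33 without pool 7. Relative to heart muscle markers it was -0.079. The ventricle median of 0.28 moved in 6 of 18 alternatives. It was lowest relative to heart muscle markers (0.024) and highest without the inferior array of pool 7, unpaired (0.42). Under quantile normalization it was 0.19, with 5 of 6 higher. Every marker of these 3 lists lay above the background of 8.0 on every array. Irx4 came closest to it, at 10.4 to 11.2 in inferior tissue. The part of such muscle in the members' differences was not tested beyond the following values.

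Relative to the mean log2 value of the 8 heart muscle markers on the same array, which differed by 0.25 between regions, the differences of Nppa and Cited1 were 1.99 and 0.62. Those of Csrp3, Nppb and Smpx became 0.32, 0.30 and 0.21, and each of these 5 genes was still higher in superior tissue in 3 of 3 pools, although Smpx by only 0.01 in pool 6. Both Ankrd1 probe sets then lay lower in superior tissue in 3 of 3 pools, at -0.22 and -0.25. In this setting, chosen after seeing the data, limma called Nppa, Csrp3 and Cited1, 3 of 7 member probe sets, all higher in superior tissue. Over all tested probe sets, 10.3% were called in either direction and 0.178% were called higher. The differences of these 3 genes were smaller than in the main fit, where they were not called. The Benjamini-Hochberg cut is looser when many probe sets are called, so these 3 calls add no evidence on the members. This scaling moves the median of all tested probe sets to -0.28, so Ankrd1 lay near that median and the other 5 genes above it. Like any ratio within an array, it shows unequal change only.

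Epicardium markers were higher in superior tissue in 6 of 6 cases and 4 were called. Tbx18, a T-box factor of the epicardium, had a log2 difference of 1.86 ± 0.12 (limma adjusted p = 0.00260). Also called were Upk1b at 1.84 ± 0.23 (adjusted p = 0.0411) and Tcf21 at 0.69 ± 0.09 (adjusted p = 0.0479). Aldh1a2 was called too, with signals of 48.2 to 140.6 in superior and 23.5 to 37.3 in inferior arrays (adjusted p = 0.0411), and the summed signal of the list was 885.8 to 1631.3 in superior and 455.5 to 752.1 in inferior arrays. The 3 tested second heart field markers were lower in superior tissue, with Fgf8, a growth factor of these progenitors, at -1.03 ± 0.17 (adjusted p = 0.0932), and 0 were called. Their median of -0.55 was -0.28 without pool 7, and the neural crest median of -0.57 was -0.37 without it. Their summed signal, with the untested Fgf10, was 765.5 to 1058.9 in superior and 890.1 to 1424.2 in inferior arrays. Of the 4 tested neural crest markers 3 were lower and 0 were called, with summed signals of 100.7 to 130.5 and 163.6 to 193.2, and Foxd3, a crest specifier, was below background on all arrays. Summed signals overlapped between superior and inferior arrays for smooth muscle (9079 to 11087 and 8412 to 9096), endocardium (1427 to 1804 and 1412 to 1519.7), cushion mesenchyme (3433 to 5467 and 3228 to 5155) and blood (13792 to 22472 and 12408 to 15542), with 0 of their markers called. All 3 tested smooth muscle markers were nevertheless higher in superior tissue in each pool, with a median log2 difference of 0.17. Of 4 blood markers 3 had higher mean log2 values in superior tissue, with a median of 0.22. Under quantile normalization these 2 medians were -0.008 and -0.005. The endocardium and cushion mesenchyme medians were 0.10 and -0.20. The part of these tissues in the members' differences was not tested.

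**Figure D5:**
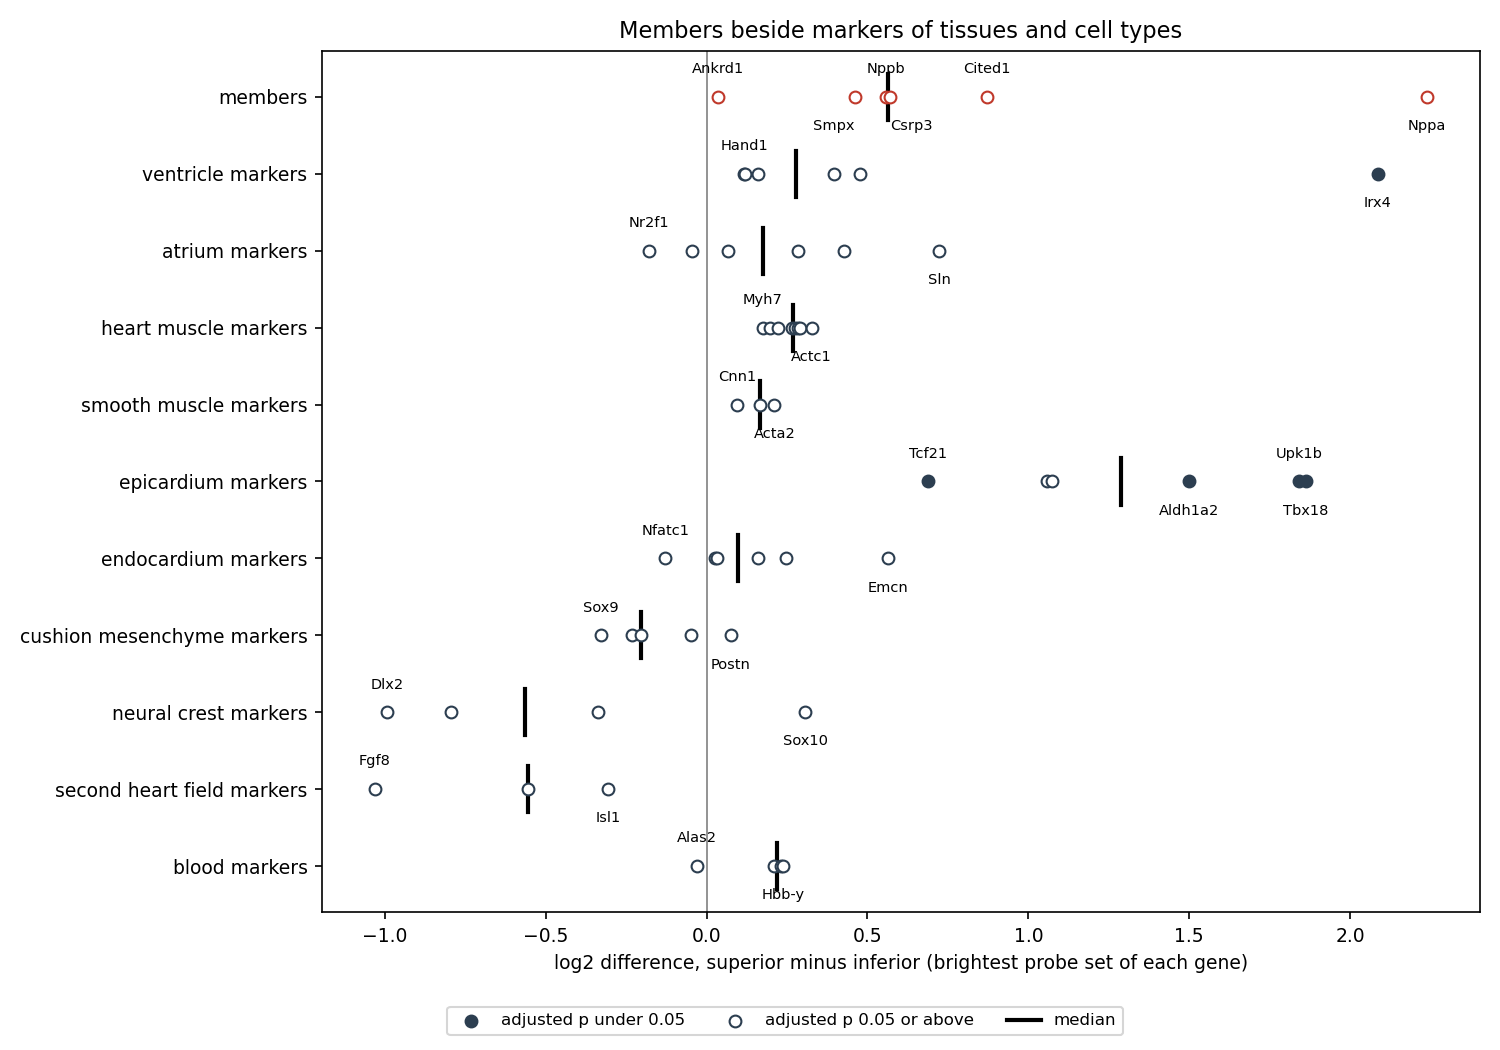
Log2 difference, superior minus inferior, of the members (red outlines) and of the tested markers of 10 tissues or cell types, with 1 point per gene, a black bar at each median and filled points for adjusted p under 0.05. Heart muscle markers lie in a narrow range around 0.27, epicardium markers reach 1.86, and second heart field markers lie below 0.

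Genes were also ranked by how closely their log2 values followed each member over the 6 arrays, which are 3 pairs and not independent. Nppa was followed most closely by Gpr162, Qdpr and Rnd2, with Pearson r of 0.993, 0.986 and 0.985, although their log2 differences were only 0.18, 0.23 and 0.29. A value of r above 0.9 with Nppa was reached by 0.571% of the probe sets compared. For Nppb the closest were Mtrex, Tmem108 and Slc16a1 (r of 0.999, 0.996 and 0.995), and 2.55% of probe sets passed 0.9. For Smpx they were Chchd6, Ddah1 and Fh1 (1.000, 0.995 and 0.993), for Csrp3 Cdc42, Spats2l and Pter (0.990, 0.985 and 0.984), and for Cited1 Nudt8, Prpsap2 and Snhg4 (0.985, 0.984 and 0.983). For the brighter Ankrd1 probe set they were Ggh, Psd3 and Ndrg1 (0.999, 0.998 and 0.995). None of these 18 genes was called between regions. Among the members themselves r was 0.93 for Smpx with Csrp3, 0.85 for Nppa with Cited1 and 0.85 for Nppb with Cited1, but 0.56 for the neighbours Nppa and Nppb.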

How the data were processed

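Affymetrix arrays of 3 superior and 3 inferior outflow tract pools were analysed. The deposited files hold 1 intensity per probe set on a linear scale. Per the submitters' processing notes the authors used MAS5 (its version: not given in the sources used here). Every array had a mean of 100 once the top and bottom 2% of signals were trimmed. Arrays hold no counts, and their number limits the precision.

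Of 45101 probe sets 64 controls were left out. The platform annotation named 1 gene for 34945 of the others, several for 932 and none for 9160, and the RefSeq gene table (GRCm38.p6) changed 0 symbols by gene ID. The offset of 3.2 is the 25th percentile of signals. The 22518 probe sets with a mean log2 value above the median (a signal of about 15.1) were tested with limma 3.58.1 in R 4.3.3. It was run as lmFit and eBayes with trend and robust variance. Its mean estimates of difference were checked on simulated data with variances shuffled across probe sets, which is no check of the p-values given here. The pool number was a block, as the choice of these genes asks. Same-numbered arrays deviated together from their region means, with r of 0.79, 0.43 and 0.51 across probe sets for pools 1, 6 and 7, above the limit of 0.1. Unlike numbers 6 and 7 reached 0.20 and 0.18, also above that limit, and unlike numbers with pool 1 gave -0.46 to -0.54. Deviations of 3 arrays from their mean sum to 0, so these r depend on each other. They do not show why same-numbered arrays were alike, which was not tested.

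Described are all member probe sets. Of the 5 related gene lists, those called and the 2 highest and 2 lowest by difference are named, and of the marker lists those called. For likeness they are the 3 genes with the highest r for each member. Other genes named were chosen after their values were seen. The members, lists and motifs were chosen with earlier results of these data known. The scaling on heart muscle markers was chosen after seeing the data.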

Additional observations from a re-analysis of the deposited data

How the results depend on the processing

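The values are those of 6 arrays, and the paired fit leaves 2 residual degrees of freedom and no embryo was measured on its own. The direction of Nppa, Nppb, Smpx, Csrp3 and Cited1 held under every alternative run, with log2 differences of 1.64 to 2.94, 0.08 to 1.02, 0.21 to 0.60, 0.32 to 0.73 and 0.52 to 1.26. The 36 calls over all probe sets became 0 without the replicate block, 22 when 1 was the offset, 1 when all probe sets were tested, 2 when only the brightest 25% were (Nppa not among them), 0 without trend and robust variance and 9 to 231 when 1 pool was left out. They were 0 in each fit without the block that left out 1 array. The pairing changed no member call. Member probe sets called numbered 0 to 5 when 1 pool was left out and 0 under the other planned settings. The median of the member genes, 0.56, was 0.49 under quantile normalization, 0.50 under cyclic loess, and 0.43 to 0.86 without the block when 1 array was left out (0.66 without superior 7 and 0.47 without inferior 7). Nppb was then at 0.08 without the superior and at 1.02 without the inferior array of pool 1. Relative to heart muscle markers, which shifts every probe set, there were 2309 calls (10.3% of those tested), of which 40 were higher in superior tissue. With so many calls the Benjamini-Hochberg cut is looser. In this setting 3 member probe sets were called (Nppa, Csrp3 and Cited1, all higher, limma adjusted p = 0.0314, 0.0341 and 0.0365), although their differences were smaller than in the main fit. The member median was then 0.31, and Ankrd1 lay at -0.22 and -0.25. The sign of Ankrd1 also turned under quantile normalization (-0.15 for 1420992_at and -0.16 for 1420991_at) and cyclic loess (-0.10 and -0.12). Probe set 1420991_at gave -0.063 to 0.083 when 1 pool was left out, below 0 without pool 1 and without pool 6. Without the block it gave -0.19, -0.10 and -0.36 without superior 6, superior 7 and inferior 1, and 1420992_at gave -0.010 without superior 6 and -0.0082 without inferior 7. The cause of these changes was not tested. Quantile normalization and cyclic loess moved the median of all probe sets by less than 0.1.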
